A study of Mus musculus with 36 samples.

Results

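Glutathione transferases and glutathione peroxidases were followed through 12 groups of mouse adipocyte preparations, as a family of 10 genes: Gsta3, Gsta4, Gstm1, Gstm2, Gstt1, Gstz1, Mgst1, Mgst3, Gpx3 and Gpx4. The genes were chosen by the array values themselves, for the lower Gsta4 level of epididymal adipocytes of mice fed a high fat diet (HFD) at 6 months, so that comparison is described without a test for any of the genes, and no test is given for Gsta4 wherever the same arrays enter. They are 10 of the 19938 genes that have a probe set of their own, and are read by 11 of the 23410 probe sets that carry a gene symbol, of 35556 in the table. Gpx4 has 2 probe sets and is counted by the brighter, and each other gene has 1.

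Total RNA was hybridized to Affymetrix Mouse Gene 1.0 ST arrays, 36 in all and 3 for each group, and the deposited values are log2 levels with an array median between 5.58 and 5.98. Each array holds a pool of the RNA of several of the 6 to 10 male mice of a group, so a p-value measures the spread between pools, which may in part be technical. With 3 arrays a group, the number of arrays limits the precision. Epididymal adipocytes and bone marrow adipocytes were taken from the same mice. The wild type C57BL/6J groups were fed HFD, with 60% of calories from fat, at 6 and 14 months, or standard chow at 6, 14 and 18 months. The study's methods describe 30 arrays, at 6 and 14 months, and the titles of the 18-month arrays name no diet. Pooling, mouse numbers and shared mice are assumed to be the same for them. The ob/ob mice, which make no functional leptin and are on the C57BL/6J background, were 6 months old and ate chow. Bone marrow adipocytes were the cells that floated after centrifugation of flushed marrow.

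Glutathione transferases join the tripeptide glutathione to reactive compounds, among them the aldehydes that form when the fatty acyl chains of lipids are oxidized. Gsta4, an alpha class enzyme, is the form best known for the lipid aldehyde 4-hydroxynonenal, and the microsomal forms Mgst1 and Mgst3 sit in membranes. Glutathione peroxidases use glutathione to reduce peroxides: Gpx4, a selenoprotein, reduces lipid hydroperoxides within membranes, and Gpx3, also a selenoprotein, is secreted into plasma. Many genes of the family carry the antioxidant response element, which is bound by NRF2, the transcription factor encoded by Nfe2l2.

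Gsta4 lies at chr9:78191966-78209349 and Gsta3 at chr1:21240565-21265575 (GRCm38.p6, RefSeq). Gstm1 (chr3:108012250-108017973) and Gstm2 (chr3:107981702-107986420) are neighbours and related copies, so that a probe set of either may read both, which was not tested. Promoter entries of RefSeq (GRCm38.p6) were present for 9 of the 10 genes, all but Gsta4, with 15 starts in all. The core of the antioxidant response element, written TGACNNNGC and searched on both strands in the 250 bases before each start, was found in 2 of these 15, against 10.2% of all 32851 promoters of the table. The stretches below are shown because Gsta3 and Mgst1 hold the match, given in capitals, and Mgst3, with no match, had the largest tested fall in ob/ob epididymal adipocytes. The match begins 121 bases before the start of Gsta3 (chr1:21240335-21240584, plus strand) and 56 bases before that of Mgst1 (chr6:138140277-138140526, plus strand, with the match on the minus strand), and the stretch of Mgst3 is chr1:167393842-167394091 on the minus strand.
Gsta3: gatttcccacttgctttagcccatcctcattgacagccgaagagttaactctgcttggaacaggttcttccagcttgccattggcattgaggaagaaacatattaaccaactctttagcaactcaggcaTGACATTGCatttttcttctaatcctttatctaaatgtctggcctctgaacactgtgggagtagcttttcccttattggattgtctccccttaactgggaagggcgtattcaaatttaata
Mgst1: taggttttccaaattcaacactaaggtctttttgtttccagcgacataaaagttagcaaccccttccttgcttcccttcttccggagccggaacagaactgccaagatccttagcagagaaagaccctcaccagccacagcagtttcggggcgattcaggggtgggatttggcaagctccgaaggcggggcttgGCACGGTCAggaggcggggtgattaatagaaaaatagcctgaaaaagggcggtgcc
Mgst3: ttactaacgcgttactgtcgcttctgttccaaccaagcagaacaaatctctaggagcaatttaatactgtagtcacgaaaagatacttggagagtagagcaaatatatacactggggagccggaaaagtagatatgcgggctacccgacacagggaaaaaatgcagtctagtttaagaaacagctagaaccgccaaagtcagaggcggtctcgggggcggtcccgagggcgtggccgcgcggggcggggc
A match to these letters is a description and not a measured binding site.

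The cell type labels were checked against marker lists. The 10 measured mature adipocyte markers averaged between 11.32 and 12.71 on the log2 scale in the 6 epididymal groups, against 6.67 to 8.15 in the 6 bone marrow groups. The 11 neutrophil markers averaged 5.62 to 7.11 in epididymal groups and 11.93 to 12.41 in bone marrow groups, so the bone marrow preparations held adipocyte transcripts far below, and neutrophil transcripts far above, the levels of epididymal adipocytes, and their label rests on the flotation step. Single epididymal chow arrays at 6 months, the reference for HFD and ob/ob, ranged from 5.83 to 9.21 for the neutrophil list. Fewer cells of a type and less RNA per cell cannot be told apart in such samples. In addition, 18 probe sets with no gene symbol placed 8 arrays on the other side of a gap from the remaining 28: all 3 arrays of HFD at 6 months in each depot, bone marrow chow array 1 and bone marrow ob/ob array 3 at 6 months. Neither labels nor methods name a batch. A term for this set of 8 arrays passed the test for 21.5% of probe sets and for 4 of the 10 genes: Gpx3 was higher in the set by 1.44 and Gstt1 by 0.88, Gstm1 was higher by 0.85, and Gpx4 was lower (log2 difference -1.11, adjusted p = 3.72e-07, limma). The term is estimated from the 2 bone marrow groups that the set divides, and values with it are given beside the results where it adds or removes a call or turns the direction of a called gene. Whether it holds for epididymal arrays was not tested, also for genes with low levels in bone marrow such as Gsta4 and Gsta3. A further 5 unnamed probe sets set the 6 arrays at 18 months apart from the rest, so age and array set cannot be told apart in comparisons with 18 months. Another 8 set apart the 3 epididymal ob/ob arrays, and 8 more the 3 epididymal HFD arrays at 6 months. Each of these is a whole group, so group and array set cannot be told apart there.

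**Figure D1:**
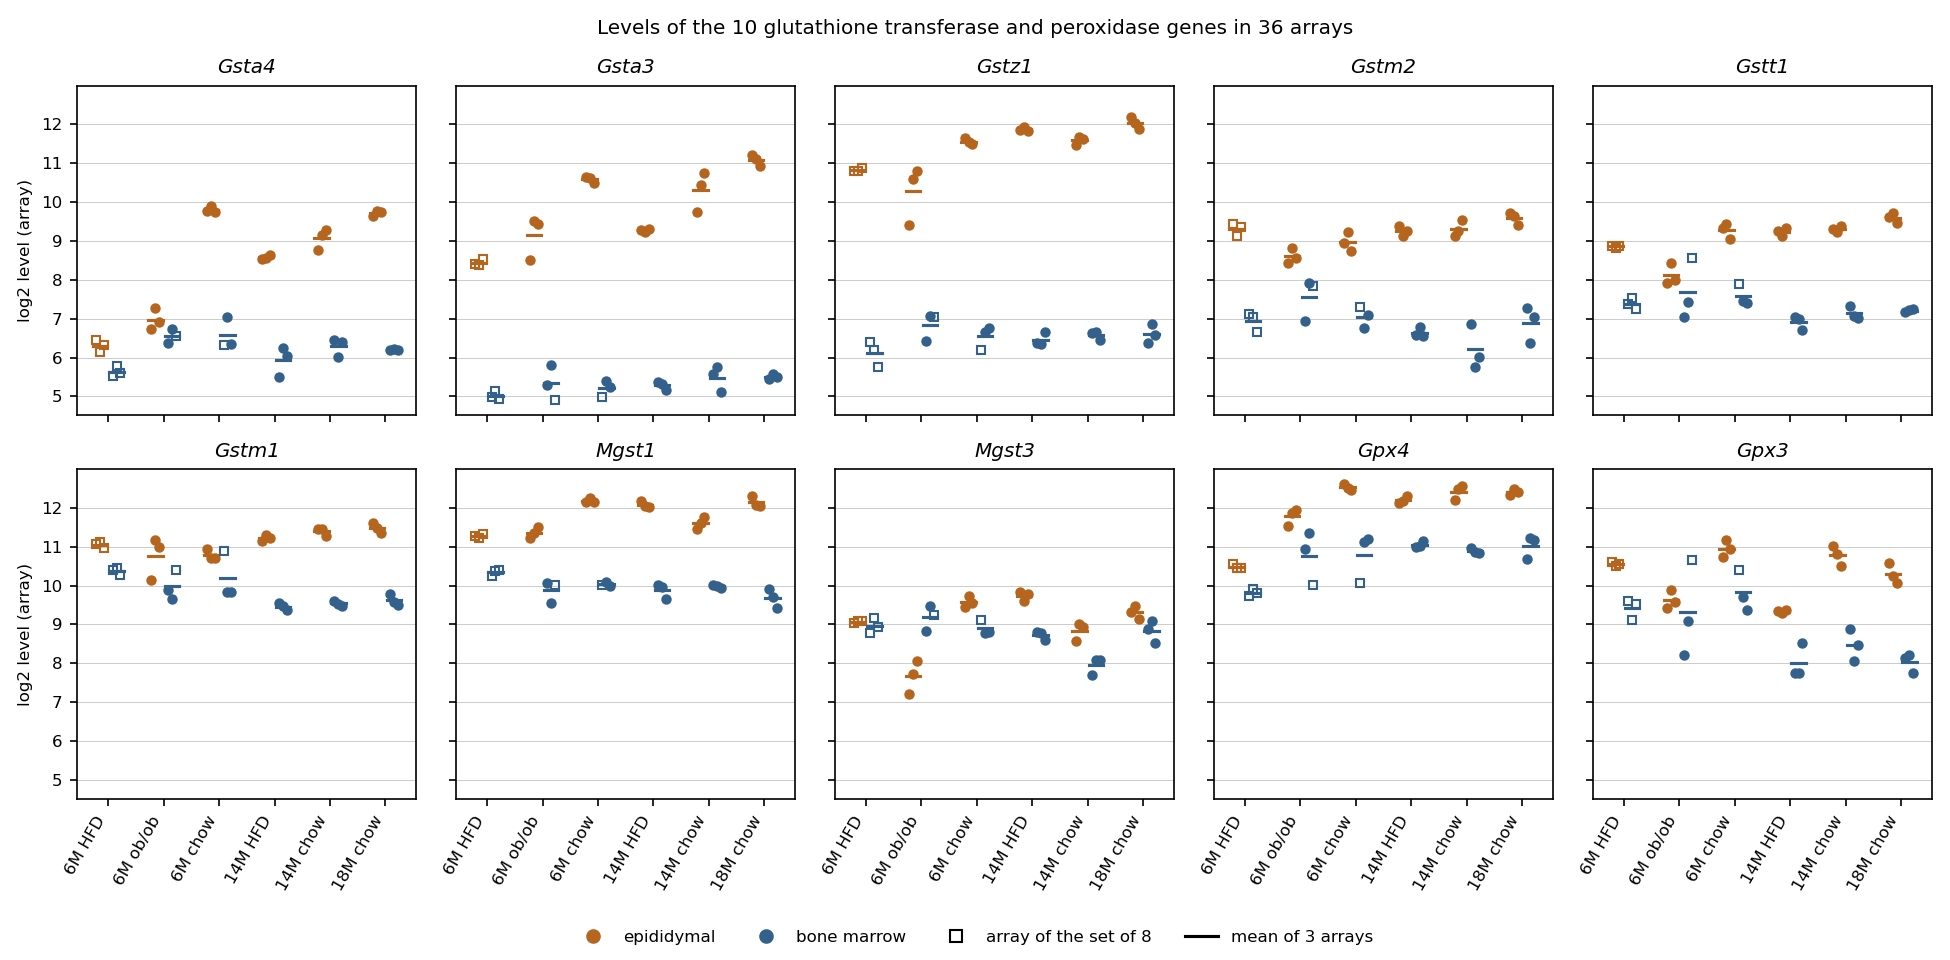
Log2 level of each of the 10 genes (panels) in every array, by group on the horizontal axis, with epididymal arrays in brown, bone marrow arrays in blue, open squares for the set of 8 arrays and a bar at the mean of 3 arrays. Gsta4 in epididymal adipocytes lies between 6.15 and 7.27 in the HFD and ob/ob arrays at 6 months, and between 8.54 and 9.91 in all other epididymal arrays.

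Gsta4 spanned a wide range of levels in epididymal adipocytes, with both kinds of obesity at 6 months at the low end. At 6 months its level was 6.44, 6.15 and 6.32 in the HFD arrays, against 9.77, 9.91 and 9.75 in the chow arrays, the difference for which the family was selected (11.4-fold lower, log2 difference -3.50). It was 6.72, 7.27 and 6.91 in ob/ob arrays, between those groups and overlapping neither. At 14 months it was 8.54, 8.57 and 8.65 on HFD and 8.76, 9.15 and 9.29 on chow, and at 18 months on chow it was 9.64, 9.77 and 9.74. From high to low the epididymal groups were therefore chow at 6 months (9.81 ± 0.087, mean ± SD, n = 3 here and below), chow at 18 months (9.72 ± 0.067), chow at 14 months (9.07 ± 0.27), HFD at 14 months (8.59 ± 0.056), ob/ob (6.97 ± 0.28) and HFD at 6 months (6.305 ± 0.15). The arrays of the highest pair overlapped, and those of every other pair of neighbours did not. In bone marrow the same gene stayed between 5.50 and 7.05 in all 18 arrays, lowest on HFD at 6 months (5.64 ± 0.14) and highest on chow at 6 months (6.58 ± 0.42), and the HFD arrays at 6 months lay below the chow arrays of that age, while the ob/ob arrays at 6 months and the HFD arrays at 14 months overlapped theirs. The epididymal ob/ob arrays, at 6.72 to 7.27, overlapped the bone marrow chow arrays of 6 months, at 6.31 to 7.05.

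In the comparison that chose the genes, epididymal HFD over chow at 6 months, Gsta4, Gsta3 and Gpx4 were lower by at least 2-fold and none was higher by that much, that is 3 of 10 genes, against 14.7% of all named probe sets at least 2-fold apart in either direction. No reading is drawn from this count, since the comparison served in the choice. Gsta3, another alpha class transferase, was 8.40, 8.38 and 8.55 on HFD and 10.65, 10.63 and 10.49 on chow. Gpx4 was 10.56, 10.45 and 10.45 on HFD and 12.60, 12.52 and 12.47 on chow. No arrays overlapped for these genes. The median of the 10 differences was -0.62 against -0.11 over all probe sets, and Gstm1 (0.26) and Gstm2 (0.33) were the genes with a positive difference, which turned to -0.58 and -0.06 with the set term. All 3 HFD arrays belong to the set of 8. Under the set term the Gsta4 difference was -3.31 and that of Gsta3 -1.66, that of Gpx4 shrank to -0.94, and those of Gpx3 and Gstt1 grew to -1.84 (-0.40 without it) and -1.29 (-0.41 without it). In bone marrow, which sets the term, Gsta4 lay between 5.50 and 7.05 and Gsta3 between 4.90 and 5.80, where the median of all values was 5.81. The term could therefore miss an offset of these genes at epididymal levels, and no reading is drawn from their values with it. The 11 macrophage markers moved with the diet: their mean ranged from 11.47 to 11.58 in the HFD arrays, against 7.85 to 8.35 in the chow arrays, and 11 of 11 were higher by at least 2-fold, while the mature adipocyte list averaged 12.17 to 12.20 on HFD and 12.69 to 12.72 on chow. Lower by at least 2-fold on HFD were 9 of 11 neutrophil and 3 of 6 erythroid markers. The neutrophil list averaged 5.44 to 5.91 in the HFD arrays and 5.83 to 9.21 in the chow arrays. The part of these marker shifts in the differences was not tested.

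Leptin deficiency was accompanied by lower levels across much of the family in epididymal adipocytes. Of the 9 genes tested, 5 fell in ob/ob over chow at 6 months and none rose, where 9.77% of all named probe sets were called in either direction (limma, Benjamini-Hochberg adjusted p under 0.05 and at least 2-fold, the rule for every call here). In comparisons of groups, counts at an adjusted or unadjusted p without the fold minimum have no share of all probe sets beside them. No reading is drawn from those counts. The median over the 9 genes was -1.15, against -0.07 over all probe sets. The chow arrays are those of the HFD comparison, so the 2 comparisons are not independent. None of the 6 arrays belongs to the set of 8. However, 8 other unnamed probe sets set the 3 ob/ob arrays apart from all others, so genotype and array set cannot be told apart.

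Mgst3, a microsomal transferase with peroxidase activity, was 7.20, 7.71 and 8.07 in ob/ob arrays and 9.45, 9.73 and 9.55 in chow arrays. It fell 3.77-fold (log2 difference -1.92 ± 0.18 SE, adjusted p = 3.02e-09, limma), the largest fall tested in the family. Gsta3 was 8.52, 9.53 and 9.43 in ob/ob arrays, against 10.65, 10.63 and 10.49 in chow arrays, and fell 2.70-fold (adjusted p = 2.3e-05, limma). Gstz1, the zeta class enzyme that isomerizes maleylacetoacetate in tyrosine breakdown, was 9.41, 10.60 and 10.81 in ob/ob arrays, against 11.64, 11.54 and 11.49 in chow arrays (log2 difference -1.28, adjusted p = 0.000101, limma). Its call rests on ob/ob array 1, without which the difference was -0.85. Gstt1, of the theta class, was 7.93, 8.42 and 8.01 in ob/ob arrays, against 9.34, 9.43 and 9.05 in chow arrays (log2 difference -1.15, adjusted p = 0.000243, limma). Gpx3, the plasma peroxidase, was 9.42, 9.89 and 9.59 in ob/ob arrays, against 10.73, 11.17 and 10.94 in chow arrays (log2 difference -1.32, adjusted p = 0.00597, limma). For each of these 5 genes the ob/ob arrays lay below all chow arrays.

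The remaining genes moved less in ob/ob epididymal adipocytes. Mgst1 (log2 difference -0.82, adjusted p = 8.47e-06, limma) and Gpx4 (-0.75, adjusted p = 0.0169) were lower by less than 2-fold with no overlap, and the second probe set of Gpx4 gave -0.75 as well. Gstm1 (-0.02) and Gstm2 (-0.37) overlapped between genotypes and passed no test. Gsta4, for which no test is given, was 7.16-fold lower (log2 difference -2.84). Macrophage markers averaged 10.58 to 11.34 in the ob/ob arrays and 7.85 to 8.35 in the chow arrays, with 10 of 11 called higher, and mature adipocyte markers averaged 10.97 to 11.52 in the ob/ob arrays and 12.69 to 12.72 in the chow arrays, with 7 of 10 measured called lower. In the same comparison 4 of 6 fibroblast markers were called higher. The part of these shifts in the falls of the transferases was not tested.

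**Figure D2:**
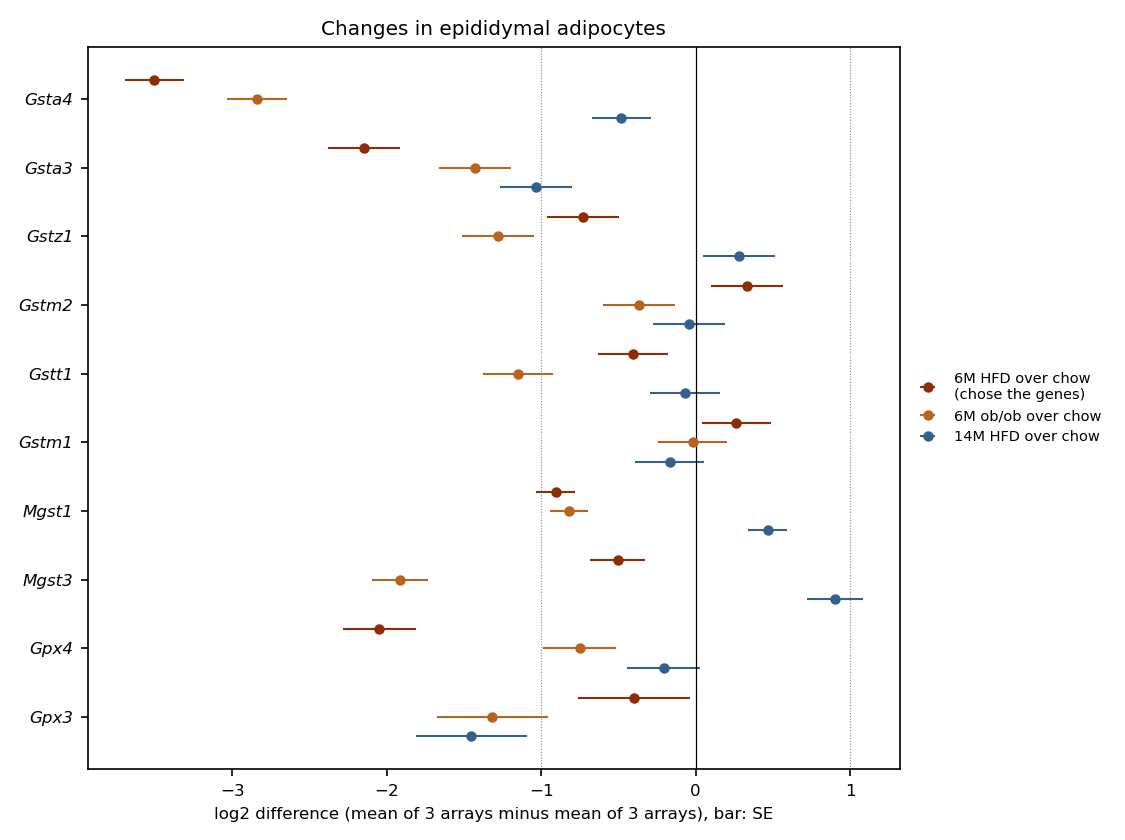
Log2 difference (horizontal axis, mean of 3 arrays minus mean of 3 arrays, bars 1 SE of the fit) of the 10 genes in epididymal adipocytes for HFD over chow at 6 months, ob/ob over chow at 6 months and HFD over chow at 14 months, with dotted lines at 2-fold. Mgst3 lies at -1.92 in ob/ob and at 0.90 on HFD at 14 months.

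In bone marrow 0 of 10 genes were called for ob/ob over chow, where 0.15% of all probe sets were (limma), 0 passed an adjusted p of 0.05 and 1 had an unadjusted p under 0.05. Without ob/ob array 3, of the set of 8, 1 gene was called. Mgst3 was 8.83, 9.47 and 9.24 in ob/ob arrays and 9.11, 8.77 and 8.81 in chow arrays, which overlap. The difference between depots was tested directly, as an interaction of genotype with depot at 6 months that was added after the values had been seen. It was called for 4 of 9 genes, all with the lower ob/ob effect in epididymal adipocytes, against 10.8% of all probe sets in either direction. These were Mgst3 (-2.20 ± 0.26 SE, adjusted p = 3.06e-07, limma), Gstz1 (-1.57, adjusted p = 0.000893), Gsta3 (-1.56, adjusted p = 0.00093) and Gstt1 (-1.25, adjusted p = 0.00557). Mgst1 passed the test below 2-fold (-0.67, adjusted p = 0.00712), and Gpx3, Gpx4, Gstm1 and Gstm2 did not pass it. With the set term Gpx4 (-0.72, adjusted p = 0.00237) and Gstm2 (-0.88, adjusted p = 0.042) passed as well, below 2-fold. The call for Gstt1 rests on bone marrow ob/ob array 3, which is in the set of 8 and stood at 8.55 against 7.05 and 7.44 in the other two, and without it the interaction was -0.81. The call of Gstt1 was also lost with array weights (-0.69, adjusted p = 0.0521) and with only the arrays compared (adjusted p = 0.0955), and it held with the set term (adjusted p = 0.000107). Gstz1 too lost its call with array weights, at -0.895.

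At 14 months on HFD Gpx3 and Gsta3 fell in epididymal adipocytes, 2 of 10 genes, where 3.57% of all probe sets were called, and the median over the genes was -0.12 against 0.03 over all probe sets. None of these arrays belongs to the set of 8. Gpx3 was 9.35, 9.28 and 9.36 on HFD, against 11.02, 10.82 and 10.52 on chow (2.74-fold lower, log2 difference -1.45 ± 0.36 SE, adjusted p = 0.00634, limma). Gsta3 was 9.29, 9.23 and 9.31 on HFD, against 9.76, 10.44 and 10.74 on chow (2.05-fold lower, log2 difference -1.04 ± 0.23 SE, adjusted p = 0.00279, limma). No arrays overlapped for either gene. The fall of Gsta3 is near the 2-fold minimum. Its call was lost without chow array 2 (-0.97), without chow array 3 (-0.82) and with each array centred on its median (-0.88). That centring put the median of all probe sets at 0.18, against 0.03 otherwise.

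The microsomal transferases lay the other way at 14 months, by less than 2-fold. Mgst3 was 9.83, 9.59 and 9.80 on HFD, against 8.57, 9.01 and 8.94 on chow (log2 difference 0.90, adjusted p = 0.000816, limma). Mgst1, which acts on membrane lipids, was 12.18, 12.04 and 12.01 on HFD, against 11.46, 11.60 and 11.76 on chow (0.47, adjusted p = 0.0112). Gsta4, at 8.54 to 8.65 on HFD, lay below its chow arrays, at 8.76 to 9.29, without passing the test (log2 difference -0.48 ± 0.19 SE, adjusted p = 0.111, limma). Gpx4, Gstm1, Gstm2, Gstt1 and Gstz1 differed by between -0.21 and 0.28, and none passed the test. Macrophage markers averaged 9.92 to 9.96 on HFD and 9.68 to 10.34 on chow, with 0 of 11 called, whereas 5 of 6 mesothelial and 3 of 6 endothelial markers were called lower. Their part in the 2 falls was not tested.

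In bone marrow at 14 months 0 of 10 genes were called on HFD (0.743% of all probe sets, limma), and 1 had an unadjusted p under 0.05. That gene was Mgst3, at 8.80, 8.77 and 8.59 on HFD, against 7.70, 8.09 and 8.08 on chow, with no overlap (log2 difference 0.77, adjusted p = 0.0166, limma). Mgst3 was thus higher on HFD in both depots at this age, and its interaction of diet with depot was 0.14 ± 0.26 (SE, adjusted p = 0.862). On chow Mgst3 averaged 8.84 in epididymal adipocytes and 7.95 in bone marrow at 14 months, below the other chow ages. Its chow means were 9.58 and 8.90 at 6 months, and 9.31 and 8.83 at 18 months. The interaction was called for 0 of 10 genes (4.02% of all probe sets), 2 had an unadjusted p under 0.05, and Mgst1 passed below 2-fold (0.57, adjusted p = 0.0449, limma), with 10.02, 9.95 and 9.64 on HFD and 10.02, 9.98 and 9.94 on chow in bone marrow. Without epididymal chow array 1 the interaction was called for 1 gene.

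At 6 months in bone marrow 0 of 10 genes were called on HFD, against 1.34% of all probe sets (limma), and 3 had an unadjusted p under 0.05. Gsta4 was 5.51, 5.79 and 5.62 on HFD, against 6.31, 7.05 and 6.36 on chow (log2 difference -0.94, adjusted p = 0.00657, limma), with no overlap and just under 2-fold. Gpx4 was 9.73, 9.91 and 9.81 on HFD, against 10.07, 11.11 and 11.21 on chow (-0.98, adjusted p = 0.0176). The chow array nearest to HFD, at 10.07, is the chow array of the set of 8, to which all 3 HFD arrays belong. With the set term the Gpx4 difference was -0.24 (adjusted p = 0.594) and that of Gsta4 -0.81 (adjusted p = 0.0709), while Gpx3, at -0.41 without the term, was called at -1.36 (adjusted p = 0.0153). Gstt1 passed the test with the term as well (-0.79, adjusted p = 0.0297). Which genes passed thus depended on the term. Left out singly, chow array 1 gave 2 called genes, and chow array 3 and HFD array 2 gave 1 each. Of the megakaryocyte markers, 4 of 5 measured were called lower on HFD, and their part was not tested.

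Between 14 and 6 months on chow 0 of 9 genes were called in epididymal adipocytes (4.53% of all probe sets, limma), and 3 had an unadjusted p under 0.05. Mgst3 was 8.57, 9.01 and 8.94 at 14 months, against 9.45, 9.73 and 9.55 at 6 months (log2 difference -0.74, adjusted p = 0.00473). Mgst1 was lower by 0.57 on the log2 scale with no overlap (adjusted p = 0.00159). Over the same arrays macrophage markers averaged 9.68 to 10.34 at 14 months and 7.85 to 8.35 at 6 months, with 10 of 11 called higher and 1 lower. Their part in the lower Mgst1 and Mgst3 was not tested.

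In bone marrow on chow 1 of 10 genes was called between 14 and 6 months, against 1.18% of all probe sets. Gpx3 was 8.89, 8.05 and 8.48 at 14 months, against 10.39, 9.69 and 9.38 at 6 months (log2 difference -1.35, adjusted p = 0.0259, limma). The highest of these arrays, at 10.39, is the chow array of the set of 8. The difference was -0.87 with the set term (adjusted p = 0.0456) and -1.06 without that array (adjusted p = 0.155), and it also lost its call without 14-month array 2 (adjusted p = 0.133) and without 14-month array 3 (adjusted p = 0.0881). Mgst3 was 7.70, 8.09 and 8.08 at 14 months, against 9.11, 8.77 and 8.81 at 6 months, lower by less than 2-fold (-0.94, adjusted p = 0.00166), so that the chow levels of Mgst3 were lower at 14 months in both depots. With the term the Mgst3 difference was -0.87 (adjusted p = 0.0044). Gstm2 passed the test below 2-fold (-0.84, adjusted p = 0.0319), and no longer did with the term (-0.71, adjusted p = 0.0751). Without 6-month array 2, and without 14-month array 1, 2 genes were called.

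On HFD the comparison of 14 with 6 months sets arrays outside the set of 8 against arrays inside it. In epididymal adipocytes 3 of 9 genes were called (11.3% of all probe sets), and 9 of 11 macrophage markers were called lower at 14 months, whose part was not tested. Gpx4 was 12.12, 12.18 and 12.31 at 14 months, against 10.56, 10.45 and 10.45 at 6 months, and rose 3.30-fold (adjusted p = 2.15e-06, limma). Gstz1, at 11.86, 11.93 and 11.83 at 14 months against 10.81, 10.81 and 10.87 at 6 months, rose 2.06-fold (adjusted p = 0.000876). Gpx3, at 9.35, 9.28 and 9.36 at 14 months against 10.60, 10.49 and 10.55 at 6 months, fell 2.32-fold (adjusted p = 0.00949). Once the set term was added, Gpx4 was higher by 0.61 (adjusted p = 0.0159), Gstz1 by 0.93 (adjusted p = 0.0614), and Gpx3 turned to 0.22 (adjusted p = 0.77). The second probe set of Gpx4 was at 0.49 with the term and did not pass the test (adjusted p = 0.0879, limma). The term also added calls for Gstt1, at 1.26 with it (adjusted p = 0.000288) and 0.38 without it, and for Gstm1, at 1.02 with it (adjusted p = 0.00305) and 0.18 without it. Mgst1, at 0.80 without the term (adjusted p = 1.22e-05) and 0.89 with it (adjusted p = 0.000929), and Mgst3, at 0.67 (adjusted p = 0.00452) and 0.88 (adjusted p = 0.0173), passed the test either way below 2-fold. Gsta4, for which no test is given, was 8.54, 8.57 and 8.65 at 14 months and 6.44, 6.15 and 6.32 at 6 months, a log2 difference of 2.28, or 2.09 with the term. The limit of the term for Gsta4 given above holds here as well.

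In bone marrow on HFD 2 of 10 genes were called between 14 and 6 months (5.47% of all probe sets). Gpx4 was 10.98, 11.02 and 11.14 at 14 months, against 9.73, 9.91 and 9.81 at 6 months (log2 difference 1.23, adjusted p = 0.000499, limma), and Gpx3 was 7.74, 7.74 and 8.52 at 14 months, against 9.61, 9.11 and 9.53 at 6 months (-1.41, adjusted p = 0.00544). These became 0.12 and 0.03 with the set term, and neither passed the test. For Gpx4, bone marrow chow array 1 (10.07) and ob/ob array 3 (10.02) lay near the 6-month HFD arrays. The other chow and ob/ob arrays of that age lay between 10.93 and 11.35. For Gpx3 the same 2 arrays, at 10.39 and 10.66, lay above all 6-month HFD arrays. The other chow arrays were at 9.69 and 9.38, and the other ob/ob arrays at 8.21 and 9.08. The size of the set term is taken from these arrays, so their split is no separate check of it.

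**Figure D3:**
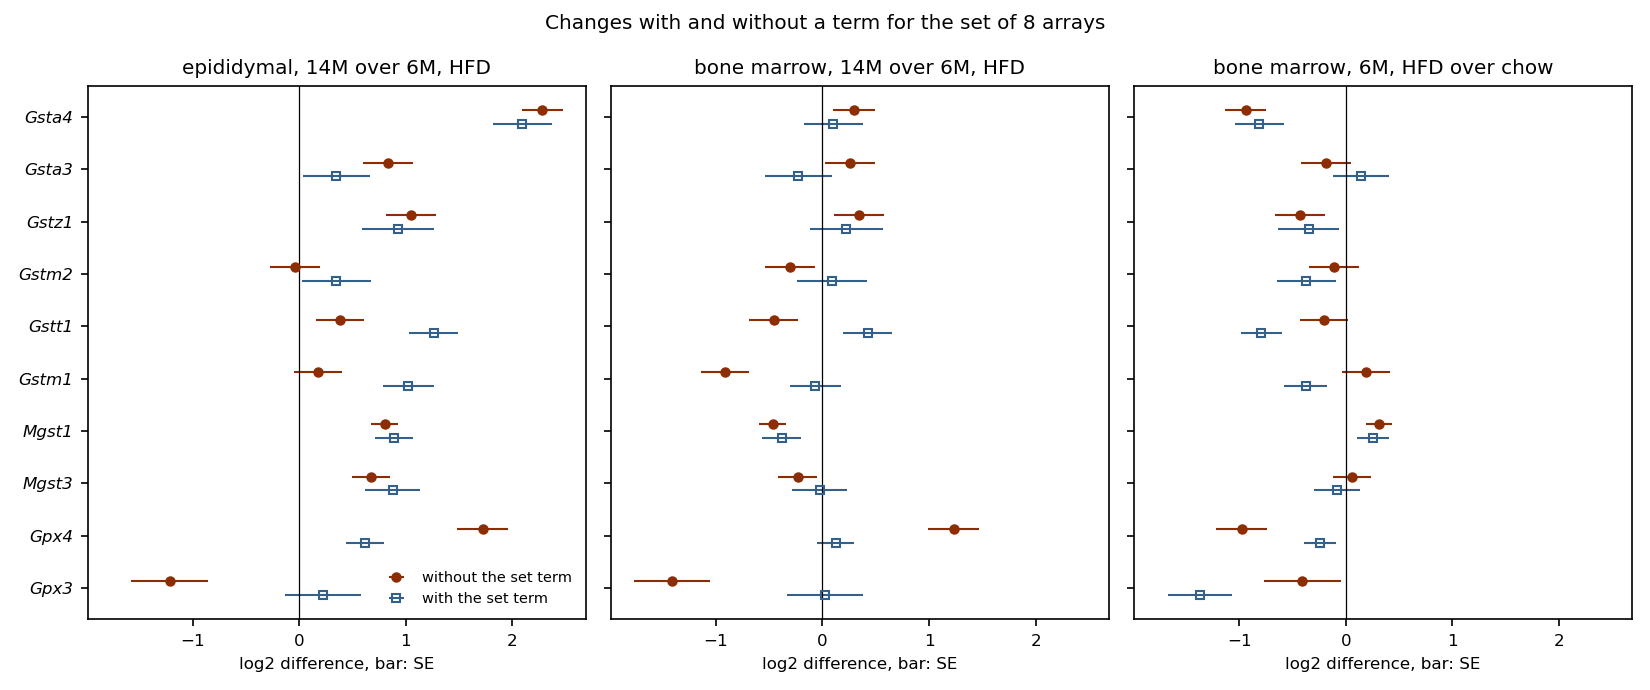
Log2 difference (horizontal axis, bars 1 SE) of the 10 genes without (filled circles) and with (open squares) a term for the set of 8 arrays, in the 3 panels for HFD at 14 over 6 months in epididymal adipocytes and in bone marrow, and for HFD over chow at 6 months in bone marrow. In the left panel Gpx3 lies at 0.22 with the term and -1.22 without it, and Gsta4 at 2.09 with it and 2.28 without it.

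At 18 months on chow Gsta3, Gsta4 and Mgst1 were higher than at 14 months in epididymal adipocytes by less than 2-fold. None of the 10 genes met the call (0 of 10, 6.18% of all probe sets, limma), and 4 had an unadjusted p under 0.05. Gsta3 was 11.21, 11.11 and 10.94 at 18 months, against 9.76, 10.44 and 10.74 at 14 months (log2 difference 0.77, adjusted p = 0.00895). Gsta4 was higher by 0.65 (adjusted p = 0.00731) and Mgst1 by 0.53 (adjusted p = 0.00222), without overlap. Macrophage markers averaged 6.56 to 6.74 at 18 months and 9.68 to 10.34 at 14 months, with 11 of 11 called lower, as were 6 of 6 endothelial and 5 of 6 mesothelial markers. Their part in these differences was not tested. In bone marrow 0 of 10 genes were called (1.81% of all probe sets, limma), with 3 at an unadjusted p under 0.05, and Mgst3 was 8.88, 9.08 and 8.53 at 18 months, against 7.70, 8.09 and 8.08 at 14 months (0.88, adjusted p = 0.00127). In bone marrow on chow all arrays at 14 months therefore lay below those at 6 and at 18 months for Mgst3. Without 14-month array 1, and without 18-month array 3, 1 gene was called.

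Between depots the family was higher in epididymal adipocytes. On chow at 14 months 9 of 10 genes were called, all higher in epididymal adipocytes, where 21.2% of all probe sets were called in either direction, and on HFD 10 of 10 were (22.9%). At 18 months on chow 9 of 10 were called, all higher (23.7%), and in ob/ob mice 6 of 10 were (18.3%), 5 of them higher. In ob/ob mice the set term added a call for Gstm1, at 1.07 with it (adjusted p = 9.12e-06) and 0.79 without it, and took that of Gpx4. The medians over the 10 genes were 2.24, 2.26, 2.42 and 0.90 in these comparisons, against medians of all probe sets between -0.02 and 0.04. Adipocyte and neutrophil markers differed between the same preparations, as given above, and their part was not tested.

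Gstz1 and Gsta3 had the widest gaps between depots. At 18 months Gsta3 was 11.21, 11.11 and 10.94 in epididymal adipocytes, against 5.46, 5.58 and 5.50 in bone marrow (47.6-fold, adjusted p = 6.75e-20, limma). On HFD at 14 months Gstz1 was 11.86, 11.93 and 11.83 in epididymal adipocytes, against 6.37, 6.35 and 6.66 in bone marrow (42.6-fold, adjusted p = 9.08e-17). The gap of Gsta4 was 6.83-fold on chow at 14 months (adjusted p = 1.87e-12) and 11.4-fold at 18 months. In ob/ob mice Gsta4 was 6.72, 7.27 and 6.91 in epididymal adipocytes, against 6.37, 6.73 and 6.56 in bone marrow, which overlap, and the difference did not pass the test (log2 difference 0.42 ± 0.19 SE, adjusted p = 0.0838, limma), nor with the set term at 0.35 (adjusted p = 0.162).

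Among the 10 genes, Mgst3 in ob/ob mice had the negative depot difference. It was higher in epididymal adipocytes by 1.02 on HFD at 14 months, by 0.88 on chow at 14 months and by 0.48 at 18 months, each with no overlap. In ob/ob mice it was 7.20, 7.71 and 8.07 in epididymal adipocytes, against 8.83, 9.47 and 9.24 in bone marrow (log2 difference -1.52 ± 0.18 SE, adjusted p = 7.49e-08, limma, and -1.45 with the set term). The call of Mgst3 on HFD at 14 months lies at the 2-fold minimum and was 0.95 without bone marrow array 3, 0.97 without epididymal array 1 and 0.99 without epididymal array 3. Likewise Gpx4 in ob/ob mice, at 1.01, was 0.65 with the set term, 0.64 without bone marrow array 3, 0.97 without epididymal array 2 and 0.93 without epididymal array 3. It was 0.95 with array weights and 0.945 with arrays centred on their medians. Its second probe set, at 0.97, was not called. Gstm2 in ob/ob mice, at 1.04, was 0.72 without bone marrow array 1 and 0.94 without epididymal array 2. It was 0.98 with quantile normalization and 0.97 with arrays centred on their medians.

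**Figure D4:**
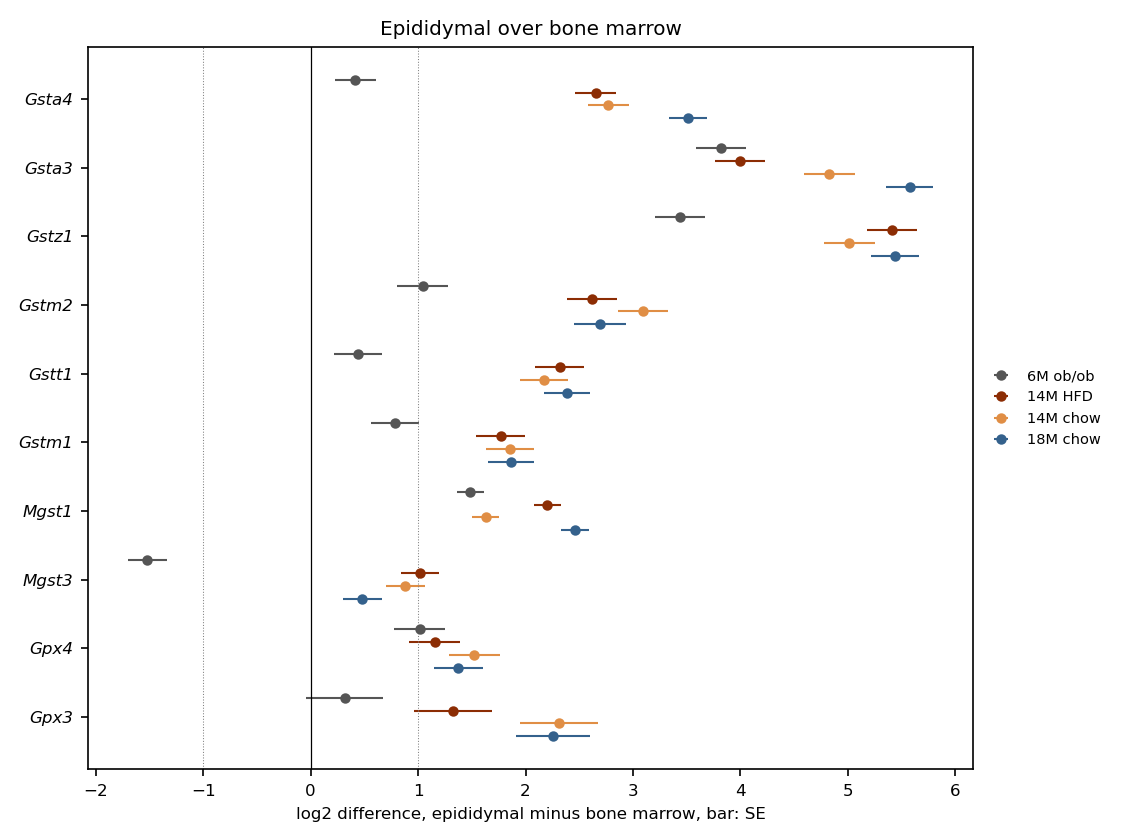
Log2 difference of epididymal adipocytes minus bone marrow (horizontal axis, bars 1 SE of the fit) for the 10 genes in ob/ob mice at 6 months, on HFD and chow at 14 months and on chow at 18 months, with dotted lines at 2-fold. Gsta3 reaches 5.57 at 18 months, and Mgst3 in ob/ob mice is the point below 0, at -1.52.

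Other genes of glutathione and aldehyde handling were read from 6 lists, chosen with earlier results of these data known. In ob/ob over chow epididymal adipocytes, 1 of 14 measured further transferases was called higher and 3 lower, with a median of -0.47 against -0.07 over all probe sets. The transferase that rose was Hpgds, the prostaglandin D synthase of mast cells and macrophages (log2 difference 4.23, adjusted p = 2.27e-10, limma), and Gstk1, Gstm4 and Gsto2 fell by 1.41, 1.26 and 1.24. Among 21 genes of lipid aldehyde removal and conjugate export, 2 were higher and 1 lower, a share near the 9.77% of all probe sets called in this comparison. Akr1b8, an aldo-keto reductase, rose by 2.89 (adjusted p = 3.16e-08) and Cbr3, a carbonyl reductase, by 1.17, while Aldh7a1, a mitochondrial aldehyde dehydrogenase, fell by 1.06. The 16 genes of NRF2 and its targets were divided, 3 higher and 3 lower: Slc7a11, the cystine transporter that feeds glutathione synthesis, rose by 1.503 and Nqo1 by 1.02, and Maff (-2.84), Osgin1 (-1.30) and Bach1 (-1.19) fell. Of 23 genes of glutathione synthesis, recycling and breakdown 1 rose (Slc7a11) and 1 fell (Oplah, which opens 5-oxoproline, by 1.34), of 11 further peroxidases Gpx5 fell by 1.00, and of 9 selenoprotein synthesis genes 0 were called.

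On HFD at 14 months in epididymal adipocytes 3.57% of all probe sets were called in either direction. Of 14 further transferases Hpgds rose by 1.65 and Gstt3 fell by 1.05. Of 21 aldehyde removal genes Akr1b8 rose by 1.94 and Aldh1a3, a retinal dehydrogenase, fell by 1.70. Of 16 genes of the NRF2 list Hmox1, heme oxygenase, rose by 1.27 and Maff by 1.20. The 11 further peroxidases, the 23 glutathione synthesis genes and the 9 selenoprotein genes held 0 calls in limma. In the comparison that chose the family, with no test, Hpgds was 4.94 higher on HFD at 6 months, Akr1b8 3.52, Slc7a11 2.68 and Gclm, a subunit of the enzyme that starts glutathione synthesis, 1.88, while Prdx3, the mitochondrial peroxiredoxin, was lower (-1.66, or -0.88 with the set term).

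Many genes of the NRF2 list were lower at 14 than at 6 months in epididymal adipocytes. On chow 1 of 16 genes was called higher and 8 lower, against 4.53% of all probe sets called in either direction, with a median of -1.05 against -0.04 over all probe sets. Of the transferase and peroxidase family 0 of 9 tested genes were called there, near that share, and Mgst1 and Mgst3 were lower below 2-fold. Maff, a small Maf partner of NRF2, fell by 3.57, Srxn1, sulfiredoxin, by 2.09, Hmox1 by 1.82 and Bach1, a repressor of the same element, by 1.71, and Txnrd1, thioredoxin reductase, fell by 1.40. On HFD 9 of 16 were called lower and 0 higher, against 7.22% of all probe sets called lower, with a median of -1.32 against 0.07 over all probe sets, led by Slc7a11 (-3.94, adjusted p = 4.44e-08), Srxn1 (-2.32), Bach1 (-2.22), Hmox1 (-2.19) and Gclm (-1.80). Their values with the set term were -3.76, -2.26, -1.92, -2.10 and -1.22. Over the same arrays macrophage markers averaged 11.52 at 6 and 9.935 at 14 months on HFD, and 8.04 and 9.96 on chow. The part of cell composition in the changes of the NRF2 list was not tested. In bone marrow on chow 1 of 16, Ephx1, epoxide hydrolase, was called, higher by 1.13 (median of the list 0.05), against 1.18% of all probe sets. On HFD 1 was called higher and 1 lower (median 0.07), against 5.47% of all probe sets.

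Between depots on chow at 14 months, 11.4% of all probe sets were called higher in epididymal adipocytes and 9.81% lower. Of 14 further transferases 7 were called higher and 1 lower (median 1.07), and of 21 aldehyde removal genes 9 were higher and 1 lower (median 0.99). The 16 genes of the NRF2 list lay mostly the other way, 1 higher and 8 lower in epididymal adipocytes (median -0.96), against 0.01 over all probe sets.

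The genes whose levels followed Gsta4 most closely over the 18 epididymal arrays were Aacs (Pearson's r = 0.993), Cdo1 (0.992), Ivd (0.989), Tcaf1 (0.986) and Fbxo31 (0.986), as a description over arrays that share groups of 3. Aacs activates acetoacetate for lipid synthesis, Cdo1 oxidizes cysteine and Ivd acts in leucine breakdown. Aacs averaged 7.84 ± 0.018 on HFD, 8.14 ± 0.028 in ob/ob and 10.44 ± 0.10 on chow at 6 months, and 9.32 ± 0.075 on HFD and 9.72 ± 0.23 on chow at 14 months, and it was 10.38 ± 0.068 on chow at 18 months. Within the family the correlation with Gsta4 was highest for Gsta3 (0.911), Gpx4 (0.896) and Mgst1 (0.864), and lowest for Gpx3 (0.305), Gstm1 (0.341) and Gstm2 (0.359). The 18 arrays include the HFD and chow arrays of the comparison that chose the genes, so no reading is drawn from these correlations.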

How the data were processed

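Isolated adipocytes of 12 groups, 3 arrays each, were measured on Affymetrix Mouse Gene 1.0 ST arrays. The log2 values used here were deposited by the authors, who state gcRMA summaries, quantile normalization and log2 transformation in Partek software, while the labels name RMA as well, and the sources used here do not give whether all 36 arrays were normalized jointly. The values were used with no further scaling. A table of diet composition was not used. Probe sets were named through the platform annotation, and the 10 genes and the lists of related genes were chosen with earlier results of these data known.

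A mean per group was fitted to 30 arrays with limma 3.58.1 (R 4.3.3), with 20 residual and 6.36 prior degrees of freedom, and to all 36 arrays for comparisons with 18 months. P-values were adjusted over 23410 named probe sets by the Benjamini-Hochberg method, and a probe set was called at an adjusted p under 0.05 and at least 2-fold. The interaction of genotype with depot was added after the values had been seen. The text names all 10 genes, at most 5 called genes of a list in a comparison by size, and the 5 genes most correlated with Gsta4. The set of 8 arrays was found from probe sets with no symbol, where a gap of 1 log2 unit or more had 3 arrays or more on either side. The fit was tested on simulated data. Alternatives were other normalizations, filters, fits, array weights, the set term, leaving out single arrays and a replicate block. The motif search used RefSeq promoters of GRCm38.p6. Genes of the lists with no probe set of their own were not analysed here.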

Additional observations from a re-analysis of the deposited data

Results flagged for a closer look

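Tests of the difference itself between depots passed for 6 effects, at an adjusted p under 0.05 with no fold minimum. These were 1 of 10 genes for diet and 5 of 9 for genotype. The share of all probe sets at this threshold was not computed, so no reading is drawn from the counts. Those of genotype were added after the values had been seen. They use epididymal chow arrays of the comparison that chose the genes. The calls of Gstt1 and Gstz1 there were lost with array weights. Mgst1 responded to HFD at 14 months more positively in epididymal adipocytes than in bone marrow (log2 difference of effects 0.57, adjusted p = 0.0449, limma). The effect of the ob/ob genotype at 6 months was lower in epididymal adipocytes than in bone marrow for Mgst3 (-2.20), Gstz1 (-1.57), Gsta3 (-1.56), Gstt1 (-1.25) and Mgst1 (-0.67). All 3 epididymal ob/ob arrays lay below all 3 chow arrays for each of these 5 genes, and the bone marrow arrays of the genotypes overlapped. This only describes genes picked by the test on the same arrays, and the share of all probe sets with this pattern was not computed. The test for a single outlying value needs 4 or more arrays a group and was not run on groups of 3.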

How the results depend on the processing

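Counts of called genes were recomputed under 13 alternatives and with each array left out. Without the 2-fold minimum, 4 genes passed for HFD at 14 months in epididymal adipocytes and 1 in bone marrow, 2 for HFD at 6 months in bone marrow, 2 and 3 between 14 and 6 months on chow in epididymal adipocytes and bone marrow, 6 and 4 on HFD, 3 and 1 between 18 and 14 months, and 1 for diet by depot. The share of all probe sets passing without the minimum was not computed, so whether these counts are unusual is not known. With array weights 3 genes were called for ob/ob in epididymal adipocytes (Gstz1 -0.96 and Gstt1 -0.95), 2 for genotype by depot, and 1 for HFD at 6 months in bone marrow. That comparison also gave 1 with quantile normalization and 1 with the set term. The call of Gpx3 between 14 and 6 months on chow in bone marrow was lost (0 called) with the set term, without moderation and with only the arrays compared. The set term left 0 genes called between 14 and 6 months on HFD in bone marrow, Gpx3 there turned to 0.025 and in epididymal adipocytes to 0.22, and the described Gsta4 difference on HFD was -3.31. Centring on medians called 1 gene between 18 and 14 months in epididymal adipocytes and put the median of all probe sets there at 0.25, against -0.01 otherwise. The cause of these shifts was not tested.

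With single arrays left out, the count ranged from 1 to 2 for HFD at 14 months in epididymal adipocytes, from 0 to 2 for HFD at 6 months and for 14 over 6 months on chow in bone marrow, and from 0 to 1 for ob/ob and for 18 over 14 months in bone marrow and for diet by depot. Over all probe sets, HFD at 6 months in bone marrow gave 313 calls, against 0 with only the arrays compared, 739 with array weights, 205 without moderation and 200 with the set term. For ob/ob in bone marrow 35 calls stood against 0, 19, 21 and 57. The term left 432 of 1280 calls by number for 14 over 6 months on HFD in bone marrow. With unnamed probe sets included, counts were 1612 against 835 for HFD at 14 months and 3991 against 2637 for 14 over 6 months on HFD in epididymal adipocytes.

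Bone marrow and epididymal cells came from the same mice, but the labels do not say that equal replicate numbers mark the same pool. In 0 of 16 comparisons did all 3 same-numbered pairs correlate over 0.1 in their deviations (-0.547 to 0.401). A replicate block left the counts of called genes as they were, with 2 for HFD at 14 months and 5 for ob/ob in epididymal adipocytes. Signal over background is not given by the values, so low levels such as Gsta3 in bone marrow are bounded only by the array.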
